A study of Mus musculus with 6 samples.

Results

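The genes described here encode the chains of the collagens. They are the 43 protein-coding rows of the deposited table whose symbol is Col, a number, the letter a and a number, out of 35275 genes. Col17a1, a collagen of the hemidesmosome, was left out by that rule. Their transcripts were measured by RNA sequencing in mouse tongues. Every mouse took the carcinogen 4NQO, a DNA-damaging quinoline that produces squamous lesions of the oral lining, at 100 µg/ml in its drinking water over 20 weeks. There were 3 libraries from mice without Aim2, a sensor of cytosolic DNA (Aim2 KO), and 3 from wild type mice. Both groups received 4NQO, so no comparison here measures the effect of 4NQO itself. The labels give no strain, age, sex or Aim2 allele, and do not say whether each library is 1 mouse. The column headers carry 1 number for each genotype, so whatever that number stands for and the genotype cannot be told apart. The p-values below measure only the spread between these libraries.

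Collagens are trimers of chains with long glycine-rich repeats that wind into a triple helix. Fibrillar collagens form the fibrils of connective tissue, type IV forms the sheet of basement membranes, and type VI forms beaded filaments around cells. Fibril-associated collagens decorate the fibrils, and type VII anchors the basement membrane of the oral epithelium to the tissue beneath it. In the tongue most of these chains are made by fibroblasts between the muscle fibres and under the epithelium, and keratinocytes, endothelial cells and Schwann cells make some of them too.

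Values are FPKM, read counts scaled to gene length and library total, as deposited. Whole reads could be recovered from them, and library totals ran from 21959204 to 25369400 reads. Of the 43 genes 17 had a mean of at least 1 FPKM over the 6 libraries and were tested, 14 lay between 0.1 and 1 FPKM, and 12 lay under 0.1 FPKM. Aim2 was at 0.0469, 0.0564 and 0.160 FPKM in Aim2 KO replicates 1 to 3 and at 0.201, 0.363 and 0.417 FPKM in wild type replicates 1 to 3, on 3 to 30 reads per library. Over all 12144 genes tested by limma, 1 gene, Wdfy1, passed an adjusted p of 0.05. Aim2 KO replicate 1 stood apart in muscle transcripts. Its mean log2 level of 10 skeletal muscle genes was 8.68, against 9.37 to 9.68 in the other 5 libraries. Results are therefore also given without it where it moves them.

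Collagen transcripts were scarce in these tongues. All 43 genes together took 0.0275% of the reads in Aim2 KO replicate 1 (exact 95% binomial interval 0.0268% to 0.0282%), 0.0578% in replicate 2 (0.0569% to 0.0587%) and 0.0448% in replicate 3 (0.0439% to 0.0457%). In wild type replicates 1 to 3 the share was 0.0320% (0.0313% to 0.0327%), 0.0509% (0.04998% to 0.0518%) and 0.0462% (0.0454% to 0.0471%). These intervals cover counting error only. In bulk samples fewer cells of a type and less RNA per cell cannot be told apart. Both groups held 1 low library and the groups overlapped, with means of 0.0434% ± 0.0152 (SD, n = 3) in Aim2 KO and 0.0430% ± 0.00985 (SD, n = 3) in wild type. In summed FPKM the groups had 71.4 ± 26.1 and 69.4 ± 16.2 (SD, n = 3 each). The difference of 1.95 FPKM became 15.5 FPKM without Aim2 KO replicate 1 and -10.5 FPKM without Aim2 KO replicate 2, so its sign rests on which library is kept. For scale, the fibril-binding proteoglycan Dcn (decorin) alone had 104, 216 and 211 FPKM in Aim2 KO and 129, 148 and 150 FPKM in wild type. The keratin Krt13, the most abundant keratinocyte marker listed, had 14020 to 16390 FPKM.

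0 of the 17 tested collagen genes passed the threshold in either direction (limma adjusted p = 0.9998 for each), where 0.00823% of all genes tested did. At an unadjusted p under 0.05 there was 1, Col7a1, or 5.88% of the 17, against 2.50% of all genes tested. By limma's voom on the recovered reads 0 of the 17 passed as well. Differences are given as the Aim2 KO mean less the wild type mean of log2(FPKM + 1), a scale that understates the change of low genes. The median was 0.02 over the collagen genes (9 positive, 8 negative) and 0.02 over all genes tested, of which 57.2% were positive. Over the collagen genes it was 0.27 without Aim2 KO replicate 1, and leaving out replicate 2 of that genotype gave -0.25. The groups did not overlap for 0 of the 17, where 4.98% of all genes tested lay wholly higher and 1.48% wholly lower in Aim2 KO. The estimates are wide. The 95% interval of the log2 difference ran from -1.09 to 1.20 for Col1a2 and from -0.99 to 1.45 for Col3a1, but from -0.42 to 0.16 for Col8a1.

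**Figure D1:**
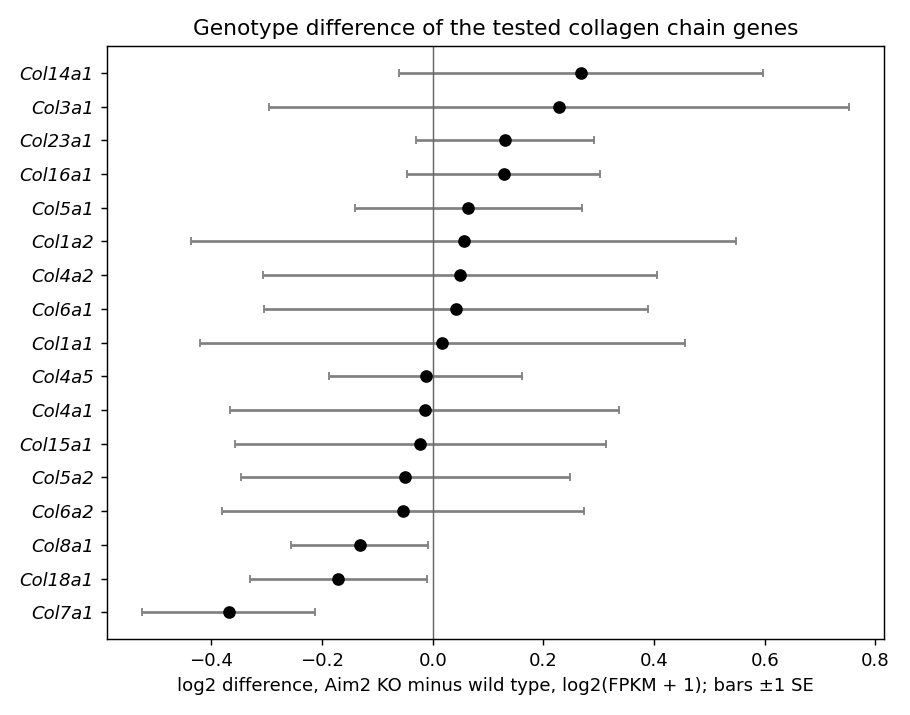
Log2 difference (Aim2 KO minus wild type, log2(FPKM + 1) scale) of the 17 tested collagen genes, with bars of 1 SE from the limma fit. The estimates run from -0.37 for Col7a1 to 0.27 for Col14a1, and the widest bar is that of Col3a1.

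The spread lay between libraries of 1 genotype. Aim2 KO replicate 1 was the lowest of the 3 Aim2 KO libraries for 15 of the 17 genes, and wild type replicate 1 was the lowest wild type library for 15 of the 17. Over all genes tested these shares were 51.9% and 34.05%. Both libraries together were the 2 lowest of the 6 for 12 of the 17 collagen genes, and for 18.8% of all genes tested. The highest library was Aim2 KO replicate 2 for 13 of the 17, against 22.8% of all genes tested. The median difference between Aim2 KO replicates 2 and 1 was 1.25 on the log2 scale for the collagen genes and 0.08 for all genes tested. Those 2 single libraries were the ones most often highest and lowest for the collagen genes, which widens their difference. The estimates between the genotypes are differences of means of 3 libraries, an unlike measure, and none exceeded 0.37 in size.

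**Figure D2:**
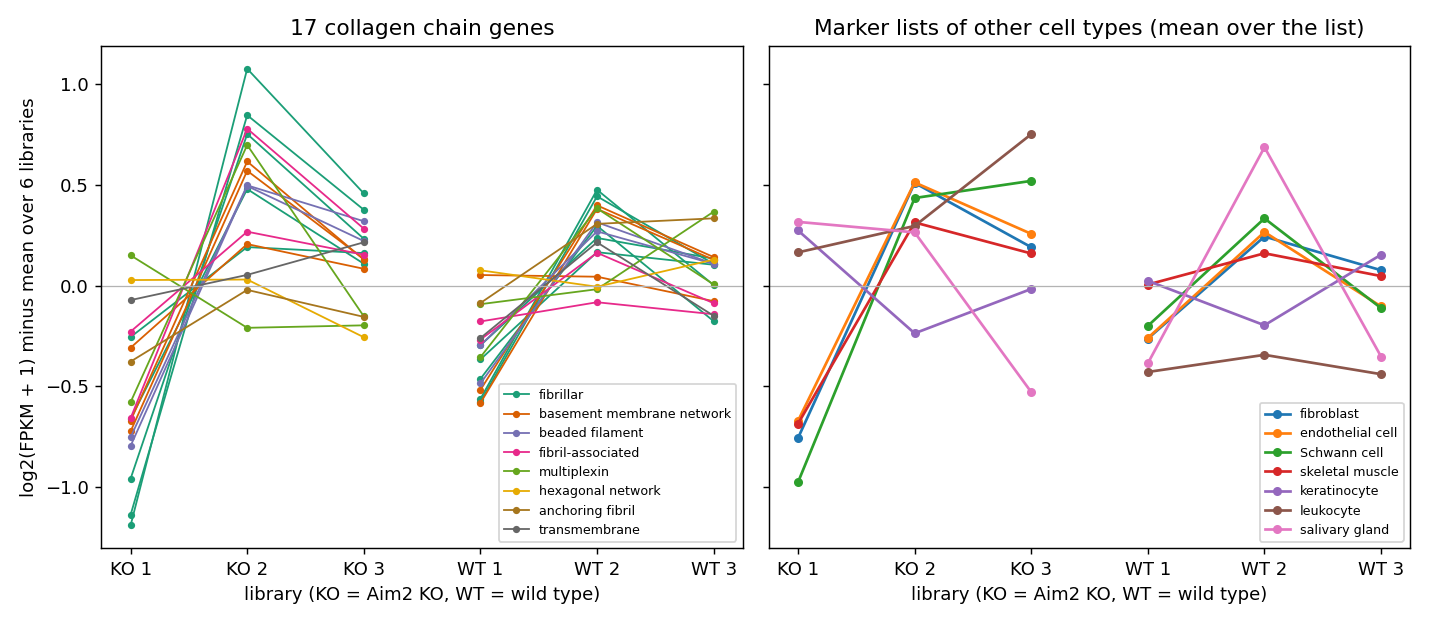
Left, log2(FPKM + 1) of each of the 17 tested collagen genes minus its mean over the 6 libraries, coloured by structural class. Right, the same for the mean level of 7 marker lists. Lines only join the values of 1 gene or list within a genotype. Most collagen genes are lowest in replicate 1 of both genotypes, as the fibroblast, endothelial, Schwann cell and skeletal muscle lists are. The leukocyte list separates the genotypes.

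Promoters are shown for Col3a1 and Col6a2, whose FPKM ranged 7.22-fold and 3.88-fold over the 6 libraries. They are also shown for Col7a1 and Col8a1, which ranged 1.82-fold and 1.40-fold. Some other tested genes ranged more than Col6a2 or less than Col7a1. Each is the 250 bases before the RefSeq start site (GRCm38.p6) and overlaps no exon of GENCODE M21. The Col3a1 window is chr1:45311288-45311537 (plus strand), that of Col6a2 chr10:76623631-76623880 (minus strand), that of Col7a1 chr9:108953336-108953585 (plus strand) and that of Col8a1 chr16:57754738-57754987 (minus strand). Capitals mark matches on either strand to CCAAT (the core of the CCAAT box; ATTGG on the other strand), to TATAAA (the TATA box; TTTATA) and to GGGCGG (the GC box; CCGCCC). No marked match overlaps another.
Col3a1: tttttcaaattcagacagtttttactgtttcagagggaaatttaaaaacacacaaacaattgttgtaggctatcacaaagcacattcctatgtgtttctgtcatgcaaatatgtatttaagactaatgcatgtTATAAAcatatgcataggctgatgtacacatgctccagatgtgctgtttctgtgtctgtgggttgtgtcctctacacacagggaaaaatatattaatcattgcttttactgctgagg
Col6a2: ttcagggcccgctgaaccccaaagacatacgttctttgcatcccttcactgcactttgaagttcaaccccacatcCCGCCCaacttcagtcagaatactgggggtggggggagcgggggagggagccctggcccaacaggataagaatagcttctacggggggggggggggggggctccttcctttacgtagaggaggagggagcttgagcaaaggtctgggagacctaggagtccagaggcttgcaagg
Col7a1: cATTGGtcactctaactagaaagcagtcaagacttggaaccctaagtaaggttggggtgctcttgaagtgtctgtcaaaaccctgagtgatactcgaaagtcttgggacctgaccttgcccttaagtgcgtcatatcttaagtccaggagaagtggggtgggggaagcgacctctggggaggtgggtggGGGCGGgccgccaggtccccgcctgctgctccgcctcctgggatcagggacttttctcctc
Col8a1: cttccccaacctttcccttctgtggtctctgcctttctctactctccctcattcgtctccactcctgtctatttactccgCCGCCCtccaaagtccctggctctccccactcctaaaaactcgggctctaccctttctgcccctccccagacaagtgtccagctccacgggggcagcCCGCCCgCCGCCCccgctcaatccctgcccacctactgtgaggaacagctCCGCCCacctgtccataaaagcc
The Col3a1 window has 35.2% G and C, with 1 TATAAA match, and the other 3 have 56.4% to 60.8% G and C. The table holds a second Col6a2 window (chr10:76623405-76623654), which overlaps an exon and is not shown, with 3 GGGCGG matches and 64.4% G and C. There was 1 GGGCGG match in the Col6a2 window shown, 1 with 1 CCAAT match in that of Col7a1, and 4 in that of Col8a1. Of 37 windows found for 34 of the 43 genes, 22 held GGGCGG, 12 held CCAAT and 4 held TATAAA. In all 32851 windows of this length in the RefSeq table the shares were 32.7%, 33.8% and 12.4%. These are matches of letters, not measured binding sites.

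Among the fibrillar collagens, type I is the main component of connective tissue fibrils and is built from the chains of Col1a1 and Col1a2. Col1a2 had 2.33, 12.2 and 8.51 FPKM in Aim2 KO replicates 1 to 3 and 3.96, 9.18 and 6.34 FPKM in wild type replicates 1 to 3. Col1a1 had 1.08, 5.82 and 3.76 FPKM in Aim2 KO and 1.72, 4.502 and 3.36 FPKM in wild type. For both, replicate 1 was the lowest library of each genotype, the groups overlapped, and the log2 differences were 0.06 (SE 0.49) and 0.02 (SE 0.44). Without Aim2 KO replicate 1 they were 0.64 for Col1a2 and 0.50 for Col1a1, and without Aim2 KO replicate 2 they were -0.35 for each.

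Col3a1 encodes the single chain of type III collagen, which mixes with type I in distensible tissues and in new matrix. It had 1.57, 11.3 and 7.05 FPKM in Aim2 KO and 3.25, 6.20 and 4.19 FPKM in wild type. That is a 7.22-fold range within the Aim2 KO group, the widest of the 17 tested genes. The lowest and the highest of the 6 values were thus both Aim2 KO libraries. The log2 difference of 0.23 (SE 0.52) became 0.88 without Aim2 KO replicate 1 (limma adjusted p = 0.361, in a fit where 0.115% of all genes tested passed) and -0.25 without Aim2 KO replicate 2 (adjusted p = 0.962).

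Type V collagen starts and limits the growth of type I fibrils. Its chain gene Col5a2 had 0.482, 2.26 and 1.53 FPKM in Aim2 KO and 0.909, 1.76 and 1.57 FPKM in wild type. Col5a1 had 0.691, 1.30 and 1.26 FPKM in Aim2 KO and 0.566, 1.26 and 1.17 FPKM in wild type, and its wild type mean of 0.999 FPKM lay just under the filter. The groups overlapped for both genes. A further type V gene, Col5a3, had 0.131 to 0.432 FPKM in Aim2 KO and 0.213 to 0.572 FPKM in wild type. Of the cartilage-type fibrillar genes, Col2a1 had 42 reads in all 6 libraries together and Col11a1 had 29.

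In the type IV network of basement membranes, Col4a1 and Col4a2 encode the chains found in nearly every tissue. Col4a1 had 2.66, 7.95 and 5.61 FPKM in Aim2 KO and 3.22, 6.95 and 5.65 FPKM in wild type. Col4a2 had 1.86, 5.98 and 3.98 FPKM in Aim2 KO and 2.04, 4.93 and 3.98 FPKM in wild type. Both were lowest in replicate 1 of each genotype and highest in Aim2 KO replicate 2, with log2 differences of -0.01 (SE 0.35) and 0.05 (SE 0.36). These became 0.34 and 0.40 without Aim2 KO replicate 1, and leaving out replicate 2 of that genotype gave -0.30 and -0.25. Col4a5, which with Col4a6 encodes chains of epithelial and smooth muscle basement membranes, had 0.618, 1.31 and 1.12 FPKM in Aim2 KO and 1.08, 1.07 and 0.899 FPKM in wild type.

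Col4a6 lay under the filter and was low in all 3 Aim2 KO libraries, at 0.307, 0.295 and 0.315 FPKM against 0.453, 0.335 and 0.397 FPKM in wild type. The groups did not overlap. It rested on 141 reads in Aim2 KO and 195 in wild type, a ratio of read rates of 0.772 with an exact 95% binomial interval of 0.617 to 0.964 for counting error only. Without an expression filter its limma adjusted p was 0.9997. Among genes with a mean of 0.1 to 1 FPKM, 3.54% lay wholly lower and 6.91% wholly higher in Aim2 KO. Col4a3 and Col4a4, the chains of kidney and lung basement membranes, had 83 and 123 reads in all.

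Type VI collagen links cells to the surrounding fibrils. Its chain gene Col6a1 had 1.58, 5.13 and 4.42 FPKM in Aim2 KO and 2.10, 4.40 and 3.68 FPKM in wild type. Col6a2 had 1.00, 3.89 and 3.05 FPKM in Aim2 KO and 1.83, 3.19 and 2.74 FPKM in wild type. Replicate 1 was again lowest in each genotype, and the log2 differences were 0.04 (SE 0.35) and -0.05 (SE 0.33). They became 0.43 and 0.33 without Aim2 KO replicate 1, and -0.20 and -0.31 when replicate 2 of that genotype was left out. Col6a3, the longest chain of the classic type VI trimer, had 0.228 to 1.08 FPKM in Aim2 KO and 0.467 to 0.921 FPKM in wild type. Col6a4, Col6a5 and Col6a6 had 12, 2 and 29 reads over the 6 libraries.

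Of the fibril-associated chains, Col16a1 had 2.70, 4.22 and 3.82 FPKM in Aim2 KO and 2.60, 3.85 and 3.08 FPKM in wild type. Col14a1, whose product binds type I fibrils in dense connective tissue, had 0.481, 3.01 and 1.84 FPKM in Aim2 KO and 1.06, 1.21 and 1.12 FPKM in wild type. The wild type libraries of Col14a1 had an SD of 0.071 FPKM, and the Aim2 KO libraries lay on both sides of them. Its log2 difference of 0.27 (SE 0.33), the highest estimate of the 17, became 0.66 without Aim2 KO replicate 1 (limma adjusted p = 0.303) and -0.05 without Aim2 KO replicate 2 (adjusted p = 0.986). Col12a1, found on fibrils under tension, had 0.513 to 0.906 FPKM in Aim2 KO and 0.527 to 0.986 FPKM in wild type. Col20a1 was between 0.106 and 0.840 FPKM, and Col22a1, a collagen of the junction between muscle and tendon, between 0.161 and 0.580 FPKM. For both of these Aim2 KO replicate 1 was the lowest library.

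Col7a1, Col18a1 and Col8a1 had library orders of their own, with the highest value in wild type replicate 3. Col7a1, the anchoring fibril chain, had 3.40, 4.62 and 4.13 FPKM in Aim2 KO and 4.38, 6.06 and 6.19 FPKM in wild type, or 4.05 ± 0.618 against 5.54 ± 1.01 FPKM (SD, n = 3 each). Wild type replicates 2 and 3 lay above all Aim2 KO libraries, and wild type replicate 1 lay between Aim2 KO replicates 3 and 2. The log2 difference of -0.37 (SE 0.16) did not pass (limma adjusted p = 0.9998, unadjusted p = 0.0479). It stayed negative when any 1 library was left out, from -0.50 to -0.27, and its smallest adjusted p over the 20 alternatives was 0.374, with array quality weights, where 0.560% of all genes tested passed.

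Col18a1, a multiplexin of basement membranes and the source of endostatin, was the most abundant of the 43 genes. It had 14.0, 10.7 and 10.8 FPKM in Aim2 KO and 11.7, 12.4 and 16.4 FPKM in wild type, and Aim2 KO replicate 1 was here the highest of its group. Its log2 difference was -0.17 (SE 0.16), and it was -0.0304 without wild type replicate 3 and -0.29 without Aim2 KO replicate 1. The other multiplexin, Col15a1, had 0.558, 2.77 and 1.09 FPKM in Aim2 KO and 0.818, 2.03 and 1.33 FPKM in wild type, in the library order of the fibrillar genes for the lowest and the highest sample.

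Col8a1, a network-forming chain of vessel walls and corneal basement membrane, varied least of the 17, by 1.40-fold over the 6 libraries. It had 4.13, 4.14 and 3.22 FPKM in Aim2 KO and 4.31, 4.02 and 4.51 FPKM in wild type. Its partner gene Col8a2 had 0.0307, 0.388 and 0.242 FPKM in Aim2 KO and 0.188, 0.418 and 0.218 FPKM in wild type, with 3 reads in Aim2 KO replicate 1. Col10a1, of hypertrophic cartilage, had 7 reads in all.

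Col23a1, a transmembrane collagen, had 2.40, 2.71 and 3.15 FPKM in Aim2 KO and 1.98, 3.15 and 2.22 FPKM in wild type, and the groups overlapped. Another transmembrane chain, Col13a1, which clusters acetylcholine receptors at the muscle endplate, had 0.365, 0.936 and 0.389 FPKM in Aim2 KO and 0.386, 0.756 and 0.511 FPKM in wild type. Col28a1, found around Schwann cells, had 0.126, 0.388 and 0.237 FPKM in Aim2 KO and 0.0577, 0.263 and 0.308 FPKM in wild type. Col26a1 had 35 reads in all.

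**Figure D3:**
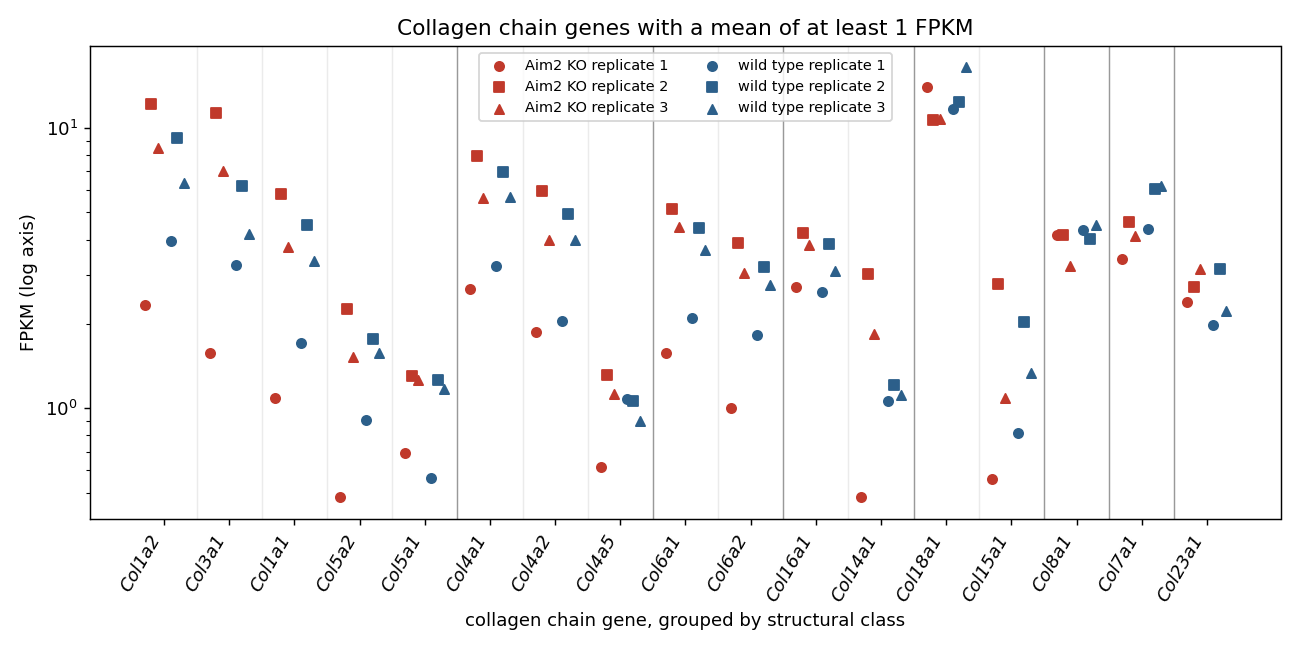
FPKM (log axis) of the 17 tested collagen genes in each library, in blocks by structural class. Red symbols are Aim2 KO and blue symbols wild type, and the shape gives the replicate. The circles of replicate 1 lie at the bottom for most genes, but not in Aim2 KO for Col18a1 and Col8a1 or in wild type for Col8a1 and Col4a5.

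Below the filter, Col27a1 and Col11a2 were the other members whose groups did not overlap. Both encode fibrillar chains best known from cartilage. Col27a1 had 0.0816, 0.0999 and 0.120 FPKM in Aim2 KO and 0.176, 0.276 and 0.166 FPKM in wild type. It had 53 reads against 116, a ratio of read rates of 0.488 (exact 95% binomial interval 0.346 to 0.681, counting error only). Col11a2 had 0.0367, 0.0595 and 0.0828 FPKM in Aim2 KO and 0.108, 0.177 and 0.143 FPKM in wild type, on 25 reads against 64 (ratio 0.417, interval 0.252 to 0.672). Without an expression filter both had a limma adjusted p of 0.9997, and unadjusted p of 0.0298 and 0.0251. With Col4a6 this made 3 of the 43 genes lower without overlap and 0 higher. Over the 22220 genes above 0 FPKM in any library 2.03% lay wholly lower and 4.78% wholly higher. Col9a3, a cartilage fibril-associated chain, had 41 reads in Aim2 KO and 23 in wild type, with overlapping groups. Col24a1 and Col25a1 had means of 0.106 and 0.101 FPKM. Of the remaining low genes, Col9a2 had 36 reads, Col19a1 7 and Col9a1 1. A library with 0 reads of Col9a1 allows a level of up to 0.0356 FPKM (3 reads). 6 of the 43 genes had 0 reads in at least 1 library.

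Ratios between chains within a library do not depend on how the library is scaled. Col1a1 stood to Col1a2 at 0.465, 0.478 and 0.441 in Aim2 KO and at 0.433, 0.490 and 0.531 in wild type. Over the 6 libraries this ratio spanned 0.29 on the log2 scale, while Col1a1 and Col1a2 themselves spanned 2.42 and 2.38. The chain that is more numerous in the type I trimer, that of Col1a1, thus had the lower FPKM in every library. Col4a1 stood to Col4a2 at 1.42, 1.33 and 1.41 in Aim2 KO and at 1.57, 1.41 and 1.42 in wild type. These 2 genes lie head to head on chromosome 8 of the deposited coordinates, with 5′ ends that overlap by 22 bases, and reads from the overlap could be counted for either. Col6a1 stood to Col6a2 at 1.15 to 1.58 in all libraries.

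Other ratios were less even. Col3a1 stood to Col1a1 at 1.45, 1.95 and 1.88 in Aim2 KO and at 1.90, 1.38 and 1.25 in wild type. Col5a1 stood to Col5a2 at 1.43 in Aim2 KO replicate 1 and at 0.576 to 0.824 in the other 5 libraries, where that library held 131 and 72 reads of the 2 genes. Col6a3 stood to Col6a1 at 0.145 in the same library and at 0.196 or more in the others. For none of the 6 ratios was the difference between genotypes shown to exceed the spread between libraries (exact permutation test, two-sided, p = 0.2 to 0.5, adjusted p = 0.5 for each). With 3 against 3 libraries this test cannot go below 0.1. The difference for Col5a1 to Col5a2 was 0.34 on the log2 scale with all libraries and -0.0089 without Aim2 KO replicate 1.

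**Figure D4:**
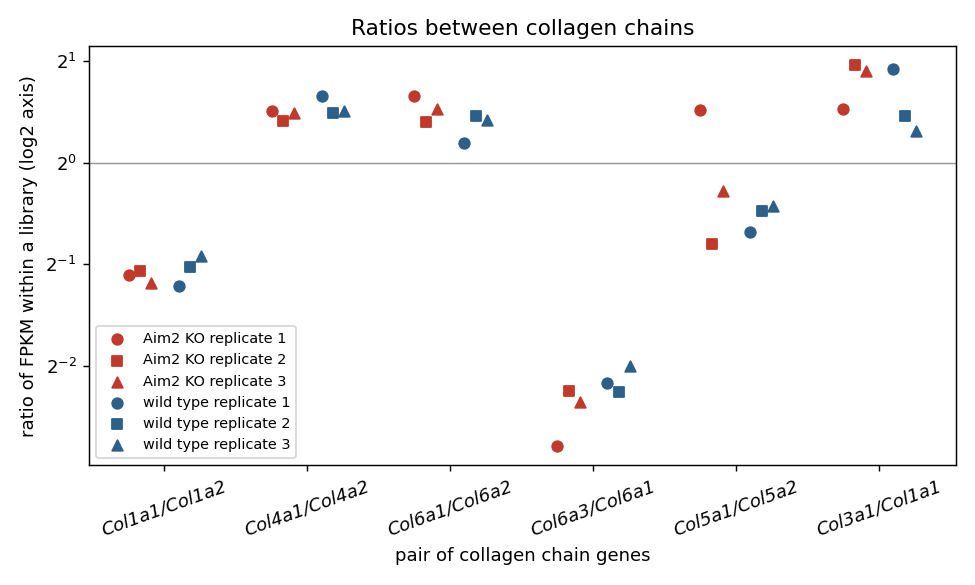
Ratio of FPKM between 2 collagen genes within a library (log2 axis), for 6 pairs. Red symbols are Aim2 KO, blue symbols wild type, and the shape gives the replicate. The ratios of Col1a1 to Col1a2 and of Col4a1 to Col4a2 lie close together in all 6 libraries, and Col5a1 to Col5a2 is set apart in Aim2 KO replicate 1.

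The 43 genes lie on 14 chromosomes, and 10 pairs of neighbouring members lie within 0.5 Mb. The 3 pairs of type IV genes are each head to head, with gaps of 71 bases for Col4a4 and Col4a3 and 1308 bases for Col4a6 and Col4a5. Within the last pair Col4a6 was lower in all Aim2 KO libraries, as given above, and Col4a5 had group means of 1.02 and 1.01 FPKM. Col3a1 and Col5a2 lie tail to tail on chromosome 1, 24.6 kb apart, and Col6a2 and Col6a1 lie in tandem on chromosome 10, 85.2 kb apart. Both of these pairs were lowest in Aim2 KO replicate 1 and highest in Aim2 KO replicate 2. Col18a1, 326 kb beyond Col6a1 in the same orientation, was instead lowest in Aim2 KO replicate 2.

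Marker lists of several stromal cell types were low in the libraries low in collagen, though not all were. The summed level of 10 fibroblast genes was 31.5, 110.8 and 80.0 FPKM in Aim2 KO and 51.5, 82.3 and 72.8 FPKM in wild type, in the library order of Col1a2. Of these, Dpt had 8.76, 35.9 and 27.0 FPKM and Clec3b 4.39, 28.3 and 16.1 FPKM in Aim2 KO. Fbln1, Thy1 and Twist2, also of the 10 and named after their values were seen, were not lowest in Aim2 KO replicate 1. Fbln1 stayed between 6.10 and 8.83 FPKM in all libraries. Thy1 was lowest in wild type replicate 3 (3.36 FPKM) and Twist2 in Aim2 KO replicate 2 (0.0792 FPKM). The sum of 8 endothelial genes was also lowest in replicate 1 of each genotype (20.7 to 58.3 FPKM in Aim2 KO, 30.1 to 47.3 in wild type). So was that of 7 Schwann cell genes (25.3 to 103.9 and 56.5 to 88.1), which was highest in Aim2 KO replicate 3. Single genes could differ from their sum. Among them, Emcn and Sox10 had their lowest wild type value in replicate 3 (1.67 and 1.66 FPKM). The sum of 6 smooth muscle genes ran from 79.0 to 141.8 and from 79.3 to 125.5 FPKM. The sum of 4 tendon genes ran from 5.78 to 20.6 and from 12.0 to 25.9 FPKM, with wild type replicate 1 lowest of its genotype. The 6 adipocyte genes summed to 67.4, 194.1 and 139.5 FPKM in Aim2 KO and 145.3, 153.5 and 105.3 FPKM in wild type, where replicate 3 was lowest. The pattern was not limited to stromal lists. The mean log2 level of 10 skeletal muscle genes was 8.68, 9.68 and 9.53 in Aim2 KO and 9.37, 9.53 and 9.42 in wild type. By that level replicate 1 was lowest in each genotype. In summed FPKM the lowest wild type library for muscle was replicate 3.

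With the mean fibroblast level as a term beside the genotype, the residual SD of Col1a2 fell from 0.82 to 0.10 on the log2 scale and that of Col3a1 from 0.87 to 0.13. For Col6a2 it fell from 0.52 to 0.03. The median over the 17 genes was 0.52 without and 0.14 with this term, and over all genes tested 0.17 and 0.13. For Col18a1 and Col8a1 it did not fall (0.23 and 0.23, 0.13 and 0.14). In that fit 0 of the 17 genes passed, and the smallest limma adjusted p was 0.620, for Col7a1. With the skeletal muscle level as the term instead, the median residual SD was 0.20 over the 17 genes and 0.13 over all genes tested. It was lower with the muscle term than with the fibroblast term for Col14a1 (0.13 and 0.19) and Col4a5 (0.06 and 0.11). In the muscle fit 0 of the 17 passed, where 0.0329% of all genes tested did. The fibroblast model was chosen after the values were seen, and the fibroblast list holds no collagen gene.

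**Figure D5:**
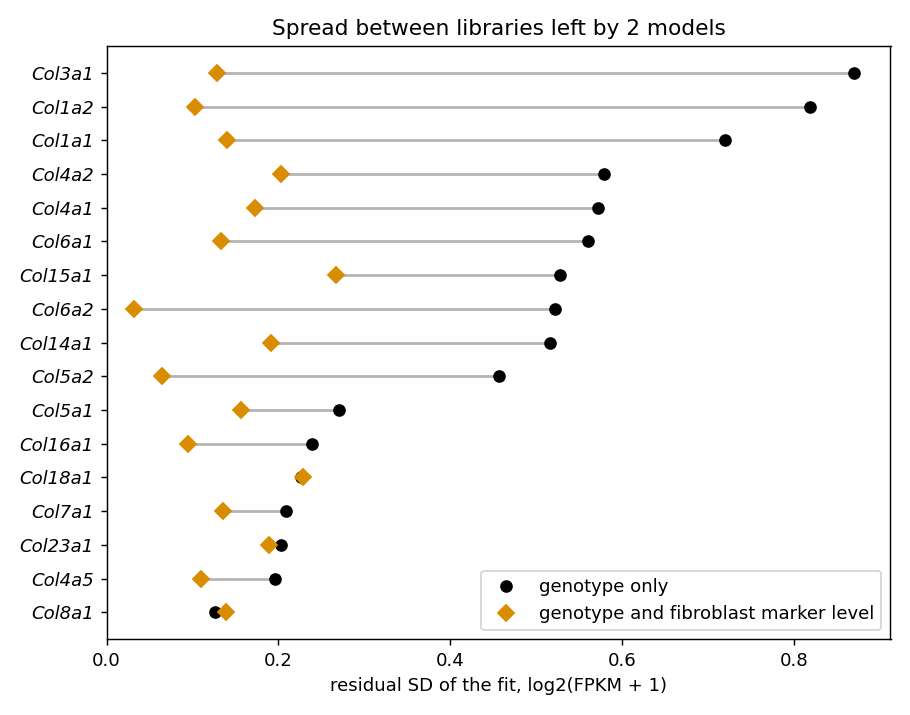
Residual SD of each tested collagen gene, on the log2(FPKM + 1) scale, in the fit with the genotype alone (black circles) and with the fibroblast marker level added (orange diamonds). Most fibrillar, type IV and type VI genes move far to the left, as do Col14a1 and Col15a1. Col5a1 and Col4a5 move less. Col18a1, Col8a1 and Col23a1 stay nearly in place.

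Other cell types had other patterns. The mean log2 level of 8 keratinocyte genes was 10.6, 10.1 and 10.3 in Aim2 KO and 10.3, 10.1 and 10.5 in wild type, highest in the library lowest in collagen. Not all of the 8 followed it. Krt4, named after its values were seen, was lowest in that library (4530 FPKM), and Krt13 was highest in wild type replicate 1. The others of the 8 were highest in Aim2 KO replicate 1. The 6 salivary gland genes summed to 5035, 2974 and 1807 FPKM in Aim2 KO and 1288, 4992 and 1816 FPKM in wild type. The order of this sum was unlike that of most collagen genes. Muc5b and Muc19, also of the 6 and named after their values were seen, were lowest in replicate 1 of each genotype. Muc5b had 157, 374 and 301 FPKM in Aim2 KO and 174, 396 and 277 FPKM in wild type. Within Aim2 KO the others of the 6 were lowest in replicate 3. Of 8 chondrocyte and bone genes 1, Sox9, passed the filter, and the list summed to 6.96 to 9.60 FPKM in all libraries. The 8 leukocyte genes, in contrast to the collagen genes, had a median log2 difference of 0.73, and 7 of the 8 were higher in Aim2 KO without overlap, against 4.98% of all genes tested. By limma's adjusted p 0 of the 8 passed, against 0.00823% of all genes tested. Their sums were 53.9 to 79.8 FPKM in Aim2 KO and 29.4 to 32.9 FPKM in wild type. The part of any of these cell types in the collagen levels was not tested.

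The genes that build, bind and degrade collagen were described from 7 lists. Of their 83 entries 63 were tested, 0 passed the threshold in either direction, and 0 had an unadjusted p under 0.05 (limma), against 0.00823% and 2.50% of all genes tested. Of 17 tested genes of chain modification and folding 11 had positive differences (median 0.07). Ppib, the cyclophilin of the prolyl 3-hydroxylase complex, had 44.1, 43.5 and 44.6 FPKM in Aim2 KO and 39.6, 37.2 and 38.5 FPKM in wild type, without overlap. It was the 1 gene of these 17 whose groups did not overlap, and the other lists held 0. Of all genes tested 4.98% lay wholly higher and 1.48% wholly lower in Aim2 KO. P4ha2, a prolyl 4-hydroxylase subunit, had 5.36 ± 0.581 against 6.55 ± 1.01 FPKM, and Plod2, a lysyl hydroxylase, 3.29 ± 0.658 against 2.69 ± 0.207 FPKM (SD, n = 3 each).

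Of the 5 tested genes of processing and cross-linking 2 had positive differences (median -0.17). Pcolce, the enhancer of procollagen C-proteinase, had 1.60, 6.34 and 3.73 FPKM in Aim2 KO and 3.11, 5.67 and 4.24 FPKM in wild type, and Loxl1, a lysyl oxidase, 0.744, 3.85 and 3.00 FPKM and 1.54, 3.85 and 3.21 FPKM. Both were lowest in replicate 1 of each genotype. Pcolce was highest in Aim2 KO replicate 2, and Loxl1 was nearly level there and in wild type replicate 2. The proteinase gene Bmp1 had 6.79 ± 0.671 against 7.87 ± 1.77 FPKM. All 5 tested receptor genes had positive differences (median 0.03), among them Itga1, at 1.54 ± 0.540 against 1.10 ± 0.319 FPKM, and Itgb1, at 60.9 ± 4.74 against 58.3 ± 6.73 FPKM.

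Of 6 tested genes of degradation and uptake 4 had positive differences (median 0.07). Mmp14, a membrane collagenase, had 26.4 ± 3.82 against 24.4 ± 2.18 FPKM, and Mmp2 had 21.0 ± 3.69 against 19.2 ± 1.52 FPKM. Among 11 fibril-binding genes 5 had positive differences (median -0.02). Fmod, which guides fibril growth, had 1.19 ± 0.482 against 1.61 ± 0.372 FPKM, and Aspn 2.27, 10.2 and 12.2 FPKM in Aim2 KO against 6.35, 9.61 and 7.68 FPKM in wild type. Among 12 basement membrane partners 9 had negative differences (median -0.06). Lamb3, an epithelial laminin chain, had 28.6 ± 4.02 against 33.9 ± 9.45 FPKM (SD, n = 3 each). Wild type replicate 3 was its highest library, as it was for Col7a1 and Col18a1. Of 7 matrix response genes 5 had negative differences (median -0.18), with Tnc at 2.66 ± 0.276 against 3.29 ± 0.816 FPKM.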

How the data were processed

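RNA was measured in 6 tongue libraries, and the authors deposited 1 table of FPKM values, with a column for each library and none pooled. The aligner, counter, build and annotation were not given in the sources used here. All 43 gene IDs are in GENCODE M21, 40 with identical coordinates, so coordinates are read as GRCm38. Multiplied by gene length, the values of a library fall on whole multiples of a constant (tolerance 0.01 of a read, met by 100% of nonzero values), and these multiples are the recovered reads. Since FPKM is relative to the library total, abundant keratin and muscle genes can shift all others.

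Genotypes were compared with limma 3.58.1 in R 4.3.3, with a mean-variance trend and genotype as the 1 term. The 12144 genes averaging 1 FPKM or more entered as log2(FPKM + 1), and two-sided p-values were Benjamini-Hochberg adjusted over all of them, with a threshold of 0.05. The procedure was also run on simulated data. There each gene was drawn independently, without shifts shared by the genes of a library. That run therefore says nothing of genes that move together between libraries, as most collagen genes did here. Older symbols were matched through gene IDs (P3h1 to P3h4, Adgrg1, Ccn2 and Cnmd). Collagen genes above 0.1 FPKM could be named, with every library's value for the 2 most abundant of each class and the 5 at each end of the log2 differences, along with up to 4 genes of each pathway list by smallest p and the 2 most abundant of each marker list. The values given for other collagen genes, Wdfy1, Fbln1, Thy1, Twist2, Emcn, Sox10, Muc5b, Muc19, Krt4 and the promoters shown were added outside this rule. The members and lists were chosen with earlier results of these data known. Alternatives were pseudocounts, filters, scalings, other limma settings, voom on recovered reads, a replicate block, covariates and leaving out libraries. Some genes of the pathway lists are counted but not reported here by name.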

Additional observations from a re-analysis of the deposited data

How the results depend on the processing

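In all 20 alternatives 0 collagen genes passed, and the smallest limma adjusted p was 0.303, without Aim2 KO replicate 1. The median log2 difference of the collagen genes did not keep its sign. It ran from -0.25 without Aim2 KO replicate 2 to 0.27 without Aim2 KO replicate 1. The pooled SD between libraries of a genotype in the median collagen level was 0.47. With all libraries kept, the median difference ran from -0.0437 with voom to 0.24 with array quality weights. Those weights were 0.241 for Aim2 KO replicate 1 and 4.18 for Aim2 KO replicate 3, so that fit gave replicate 1 little part. Over all genes the 1 call became 68 with array quality weights, 4 with the skeletal muscle covariate, 0 with a filter at 0.1 FPKM, with no filter, after rescaling to TPM and with the replicate block, and 0 to 14 when 1 library was left out. The cause was not tested.

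The samples share only a replicate number. Deviations of same-numbered libraries from their group means correlated at 0.35, 0.46 and 0.03 across genes. Those of differently numbered libraries correlated at -0.46 to 0.21. The deviations within a genotype sum to 0, so these values are not independent and cannot decide whether the numbers mark pairs. With the replicate block 0 collagen genes passed, as without it.

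Signs near 0 turned. Col1a1 went to -0.0172 with median-of-ratios scaling, -0.0328 with a pseudocount of 0.1, -0.0024 with 0.5 and -0.0437 with voom. With array quality weights Col4a5, Col4a1, Col5a2 and Col6a2 went to 0.0654, 0.24, 0.16 and 0.24, and with the skeletal muscle covariate to 0.0567, 0.17, 0.11 and 0.13, where Col15a1 went to 0.13. With the fibroblast covariate, added after seeing the data, Col4a5, Col4a1 and Col15a1 went to 7.3e-05, 0.0268 and 0.0134. Without Aim2 KO replicate 1 and wild type replicate 1 together, also added, Col4a5, Col4a1, Col15a1, Col5a2 and Col6a2 went to 0.16, 0.0809, 0.0783, 0.11 and 0.17. The cause was not tested.

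Leaving out 1 library at a time, these log2 differences crossed 0. Col14a1 ran from -0.0534 to 0.66, Col3a1 from -0.25 to 0.88, Col1a2 from -0.35 to 0.64 and Col1a1 from -0.35 to 0.50. Col4a1 ran from -0.30 to 0.34, Col4a2 from -0.25 to 0.40, Col4a5 from -0.12 to 0.14 and Col15a1 from -0.38 to 0.26. Col5a1 ran from -0.10 to 0.21, Col5a2 from -0.30 to 0.27, Col6a1 from -0.20 to 0.43 and Col6a2 from -0.31 to 0.33. The log2 ratio differences of Col1a1 to Col1a2 ran from -0.14 to 0.0027 and of Col5a1 to Col5a2 from -0.0089 to 0.65. Genes under 0.1 FPKM rest on few reads, 1 to 123 in all, and their genotypes are not compared here. Col11a2 and Col9a3, above that level, also rest on few reads, 89 and 64 in all.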
